A study of Homo sapiens with 6 samples.

Results

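The Krüppel-like factors (KLF proteins) are zinc finger transcription factors, and the genes described here are KLF2, KLF3, KLF4, KLF5, KLF6, KLF7, KLF9, KLF10, KLF11 and KLF13. They were picked out by gene symbol and are 10 of the 27420 genes in the expression table. RNA was sequenced from A673 and SKNMC, established Ewing sarcoma cell lines, after 6 h in DMSO, the vehicle, or in THZ1, a covalent inhibitor of the transcription kinase CDK7, at 50 or 200 nM. Each of the 6 conditions is 1 library, so the spread between replicates is unknown and no test was made. Each line comes from 1 tumor and was grown in serum-containing medium, and all 6 libraries come from cells exposed to DMSO or to drug for the same time. Of 7 Ewing sarcoma marker genes, 7 were above 1 FPKM with DMSO in both lines, and the 4 endothelial markers listed were all below it. Markers of other cell types were above it for 1 of 5 lymphocyte genes in A673 and 2 of 5 in SKNMC, 2 of 6 epithelial genes in both, and 3 of 5 fibroblast or smooth muscle genes in A673 and 5 of 5 in SKNMC.

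KLF proteins share a C-terminal DNA-binding domain of C2H2 zinc fingers that recognizes CACCC and GC-rich elements, and they differ in the N-terminal part, which recruits cofactors. By these cofactors the family is commonly divided into activators, which bind acetyltransferases, repressors that bind the corepressor CtBP, and repressors that bind Sin3. Several KLF genes are induced quickly by growth factors, cytokines, shear stress or steroid hormones, and their transcripts are known to be short-lived.

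Expression is given as FPKM, a fragment count divided by transcript length and library size, so levels can be compared between genes. A gene was called active in a line when its FPKM with DMSO was above 1. In A673, 8 of the 10 KLF genes were active, all but KLF4 and KLF9. In SKNMC, 9 were active, all but KLF4. No KLF gene among the 10 was listed at 0 in any library. Together the 10 genes held 108.8 FPKM in A673 vehicle, 91.4 with 50 nM and 50.8 with 200 nM THZ1. In SKNMC the sums were 93.1, 95.6 and 54.1 FPKM. The summed level at 50 nM was therefore close to that with DMSO in SKNMC and somewhat below it in A673, and at 200 nM it was the lowest of the line in both. In bulk RNA, fewer cells that express a gene and less of its RNA per cell cannot be told apart.

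Fold changes are the log2 ratio of FPKM + 1 in THZ1 to FPKM + 1 in DMSO, a form that pulls lowly expressed genes toward 0, and a gene is said to have fallen or risen when it changed at least 2-fold on this scale. In A673 at 50 nM, 1 of the 8 active KLF genes fell, KLF2, against 15.9% of all active genes, and none rose, against 0.343%. At 200 nM, 4 of the 8 fell, KLF2, KLF3, KLF6 and KLF11, against 25.3%, and none rose, against 0.126%. In SKNMC at 50 nM, 1 of the 9 active KLF genes fell, again KLF2, against 15.8%, and none rose, against 0.471%. At 200 nM, 3 of the 9 fell, KLF2, KLF3 and KLF11, against 27.3%, and none rose, against 0.462%. At 50 nM the share of KLF genes that fell was thus near that of active genes as a whole, and KLF2 was its sole member in both lines. With a 1.5-fold limit, 2 and 8 of the 8 active KLF genes in A673 passed downward at 50 and 200 nM, against 31.8% and 41.1% of all active genes. In SKNMC 1 and 6 of the 9 did, against 33.5% and 48%.

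The median log2 fold change of the active KLF genes in A673 was -0.44 at 50 nM and -0.99 at 200 nM, where all active genes had medians of -0.27 and -0.40. In SKNMC the KLF medians were -0.05 and -0.75, beside -0.32 and -0.55. The KLF median lay below that of all active genes in 3 of these 4 comparisons and above it in SKNMC at 50 nM. Both doses of a line were compared with the same DMSO library. FPKM is a share of a library, and the medians move with the scaling: with each library divided by its 75th percentile over active genes, the median of all active genes moved by 0.22 and 0.32 in A673 and by 0.25 and 0.48 in SKNMC, at 50 and 200 nM. With the ribosomal protein genes as the reference, through their median, it moved by -0.19 and -0.29 in A673 and by -0.28 and -0.44 in SKNMC. KLF2 fell in all 4 comparisons under each of these scalings. In A673 at 200 nM, KLF3, KLF6 and KLF11 were short of 2-fold with the 75th percentile scaling, at -0.91, -0.77 and -0.94.

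**Figure D1:**
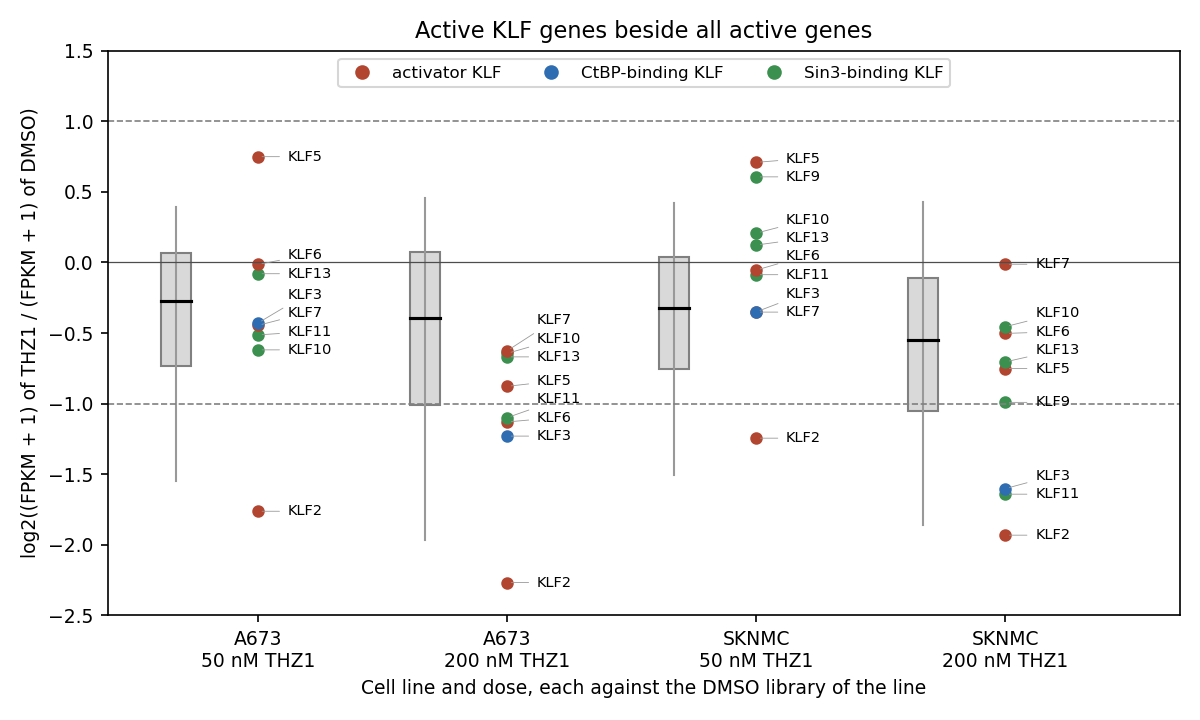
Log2 fold change (vertical axis, FPKM + 1) of each active KLF gene at 50 and 200 nM THZ1 in A673 and SKNMC, with 1 library per condition, colored by cofactor group; grey boxes span the middle quartiles of all active genes with their median, grey lines run from the 5th to the 95th percentile, and dashed lines mark 2-fold. KLF2 is the lowest point in every column, and KLF5 is the highest at 50 nM in both lines, at 0.75 and 0.71.

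Among the activators, KLF2 is known for keeping endothelial cells and naive T cells quiescent. Its level in A673 was 6.88 FPKM in vehicle, 1.32 with 50 nM and 0.637 with 200 nM THZ1. In SKNMC the levels were 4.89, 1.48 and 0.542 FPKM. The DMSO library was highest and the 200 nM library lowest in both lines, with most of the difference already present at 50 nM. At 50 nM, KLF2 stood at 19.2% of its DMSO level in A673 and 30.4% in SKNMC, and at 200 nM at 9.26% and 11.1%. On the log2 scale it fell by 1.76 and 2.27 in A673 and by 1.24 and 1.93 in SKNMC. Only 2.78% of the active genes of A673 were lower than KLF2 at 50 nM and 2.46% at 200 nM. In SKNMC the shares were 9.42% and 4.19%.

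The start regions of KLF2, KLF5 and KLF6 are shown because these activators differ in how they follow the dose. The sequences are from RefSeq on build GRCh38.p14, read 5′ to 3′ on the strand of the gene and end at the gene start unless said otherwise. Capitals mark matches, on either strand, to the KLF box CACCC, the GC box GGGCGG, the TATA box TATAAA, the cyclic AMP response element, the E-box CACGTG, the paired ETS site and the CArG box. No base in the printed windows lay in both a CACCC and a GGGCGG match. The KLF2 window, chr19:16324576-16324825 on the plus strand, is 80.0% G or C and holds 4 GC boxes and no CACCC. Matched exactly to GRCh37, it lay outside every annotated gene.
KLF2: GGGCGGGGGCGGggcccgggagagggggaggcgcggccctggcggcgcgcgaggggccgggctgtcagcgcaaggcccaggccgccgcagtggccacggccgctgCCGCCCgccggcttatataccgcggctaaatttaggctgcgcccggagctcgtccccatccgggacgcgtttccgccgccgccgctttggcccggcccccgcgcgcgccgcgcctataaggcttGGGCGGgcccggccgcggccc
A match in a window describes its letters, and binding was not measured. Among 35116 promoter windows of 250 bases, 42.6% hold GGGCGG, 54.7% CACCC, 10.7% TATAAA, 6.34% CACGTG, 3.06% a paired ETS site, 1.65% a cyclic AMP response element and 1.16% a CArG box. The median window is 58.0% G or C.

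KLF5, an activator that drives proliferation in intestinal crypts, followed the dose in another way. In A673 it was at 5.10 FPKM in vehicle, 9.26 with 50 nM and 2.32 with 200 nM THZ1. SKNMC had 2.05, 3.99 and 0.812 FPKM. In both lines the 50 nM library was thus the highest and the 200 nM library the lowest. The log2 fold change at 50 nM was 0.75 in A673 and 0.71 in SKNMC, short of 2-fold, and its sign did not change with the scaling. Of all active genes, 99.2% in A673 and 98.6% in SKNMC were lower than KLF5 at that dose. At 200 nM the values were -0.88 and -0.75, also short of 2-fold with 1 added to FPKM, although with 0.1 added they were -1.10 and -1.24, and the A673 value was -1.12 with the ribosomal protein scaling. From 50 to 200 nM, which does not use the DMSO library, KLF5 fell by 1.63 on the log2 scale in A673 and by 1.46 in SKNMC, and the ratio of FPKM was 3.99 and 4.91.

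To see how common this order was, a pattern chosen after the KLF5 values were seen was counted over all genes active in both lines: at least 1.5-fold up at 50 nM and at least 1.5-fold down at 200 nM in both. It held for 10 of 10574 genes, or 0.0946%, and KLF5 was the 1 KLF gene among them. The others were BAG3, FASTKD5, LUZP1, MB21D2, MED26, PAPD7, RLF, RPRD2 and SPTY2D1. BAG3 is a co-chaperone and MED26 a Mediator subunit. KLF5 kept the pattern with libraries scaled to a common sum, where 11 genes had it, and with 0.1 in place of 1 added to FPKM, where 16 did. With the 75th percentile scaling 13 genes had it and with the ribosomal protein scaling 5, and KLF5 was in neither count.

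KLF5 has 2 entries in the promoter table, at separate starts on the plus strand of chromosome 13. The upstream one, chr13:73054726-73054975, is 40.8% G or C, with 1 TATAAA and 1 CACCC match and no GC box, and lay outside annotated genes on GRCh37.
KLF5 upstream start: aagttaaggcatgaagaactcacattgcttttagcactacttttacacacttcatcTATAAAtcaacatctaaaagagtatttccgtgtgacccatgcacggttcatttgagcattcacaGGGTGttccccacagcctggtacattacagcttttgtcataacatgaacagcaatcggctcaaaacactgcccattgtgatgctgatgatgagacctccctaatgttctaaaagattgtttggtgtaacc
The downstream one, chr13:73058755-73059004, is 70.8% G or C with 2 CACCC and 2 GGGCGG matches. On GRCh37 it lay inside the KLF5 gene but in none of its exons.
KLF5 downstream start: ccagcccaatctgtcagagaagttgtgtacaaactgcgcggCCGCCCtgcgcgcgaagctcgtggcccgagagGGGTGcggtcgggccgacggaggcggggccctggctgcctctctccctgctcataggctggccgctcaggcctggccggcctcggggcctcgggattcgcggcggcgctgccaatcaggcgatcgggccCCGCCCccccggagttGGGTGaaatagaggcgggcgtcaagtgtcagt
The deposited table gives 1 value per gene, so transcripts from the KLF5 starts were not separated.

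KLF6, an activator first isolated as a core promoter element-binding protein, is on the study's list of genes with shared super-enhancers. It was the most abundant KLF gene of the 10 in A673, at 43.4 FPKM in vehicle, 42.9 with 50 nM and 19.3 with 200 nM THZ1. The SKNMC libraries had 18.3, 17.6 and 12.6 FPKM. Its level at 50 nM was therefore close to that with DMSO in both lines, and the 200 nM library was the lowest. The log2 fold change at 50 nM was -0.01 in A673 and -0.05 in SKNMC, and both values changed sign with the 75th percentile scaling, the first also with a common sum. At 200 nM KLF6 fell by 1.13 in A673. In SKNMC at 200 nM it was at -0.50, short of 2-fold, positive with the 75th percentile scaling and past 2-fold, at -1.02, with the ribosomal protein scaling. Whether KLF6 responded differently in the lines was not tested.

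The KLF6 window is on the minus strand at chr10:3785282-3785459 and ends 72 bases before the RefSeq start, because the bases after it lie in an annotated KLF6 exon on GRCh37. It is 76.4% G or C and has 1 GGGCGG match, 116 bases before the start, and 1 CACGTG match, 97 bases before it.
KLF6: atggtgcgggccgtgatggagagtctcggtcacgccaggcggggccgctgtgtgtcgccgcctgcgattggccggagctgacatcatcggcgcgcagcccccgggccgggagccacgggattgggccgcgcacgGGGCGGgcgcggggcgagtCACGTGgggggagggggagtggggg
In all, 8 of the 10 KLF genes had a promoter entry that was used, with 13 windows. Of these windows, 8 held GGGCGG, 6 held CACCC and 4 held CACGTG, beside 42.6%, 54.7% and 6.34% of all promoter windows. KLF10 and KLF3 were not among the 8.

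**Figure D2:**
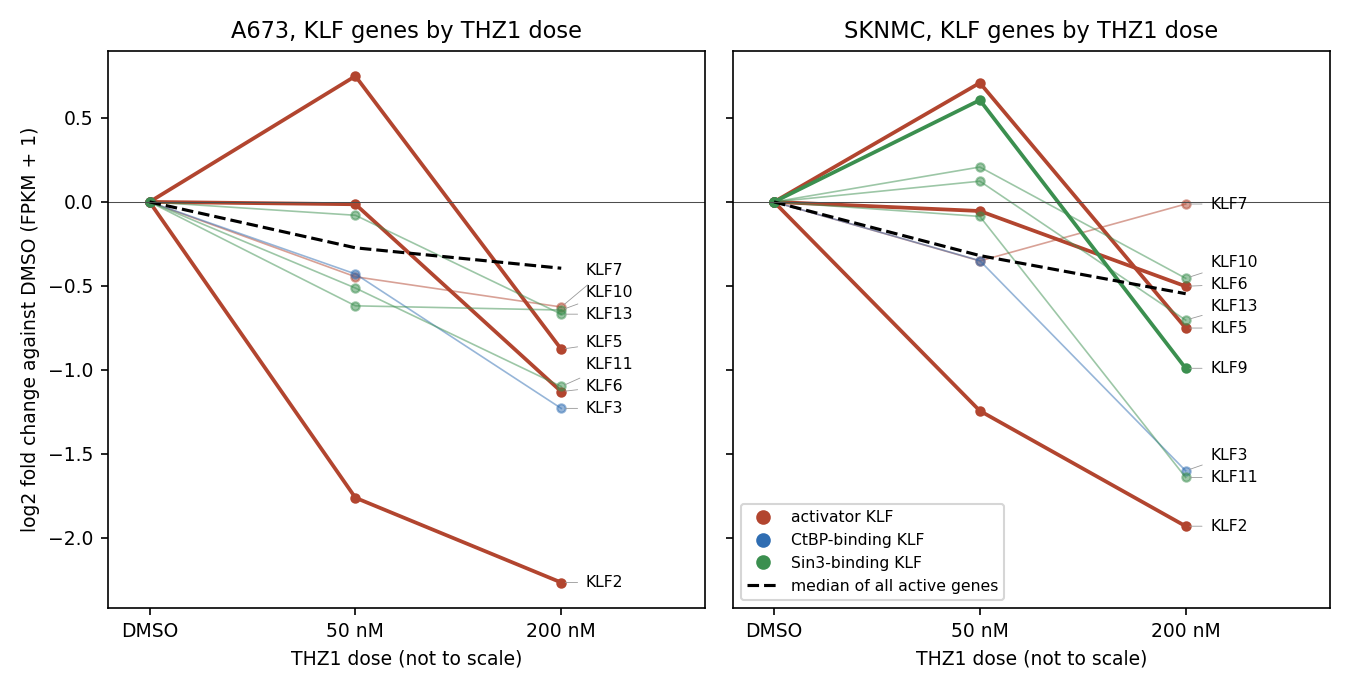
Log2 fold change against DMSO (vertical axis, FPKM + 1) of the active KLF genes at each THZ1 dose, 1 library per point, in A673 and SKNMC; thick lines are KLF2, KLF5, KLF6 and, in SKNMC, KLF9, and the dashed line is the median of all active genes. KLF5 goes to 0.75 and 0.71 at 50 nM and to -0.88 and -0.75 at 200 nM, while KLF2 is the lowest line throughout.

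KLF7, which has roles in neuronal development, was at 4.94, 3.36 and 2.85 FPKM in A673 with DMSO, 50 nM and 200 nM. The SKNMC values were 5.49, 4.08 and 5.43 FPKM. The order of the THZ1 libraries was thus opposite in the lines, and 200 nM in SKNMC was level with DMSO. No KLF7 value passed 2-fold, with log2 fold changes of -0.45 and -0.63 in A673 and -0.35 and -0.01 in SKNMC, the last of which was positive with a common sum and with the 75th percentile scaling.

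KLF4, known as a reprogramming factor for pluripotency and as a differentiation factor of epithelia, was inactive in every library. Its level in A673 was 0.163 FPKM in vehicle, 0.191 with 50 nM and 0.126 with 200 nM THZ1. The SKNMC values were 0.0295, 0.0317 and 0.0800 FPKM. At such levels no fold is read.

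KLF3, a repressor that recruits CtBP, was at 14.0 FPKM in A673 vehicle, 10.2 with 50 nM and 5.41 with 200 nM THZ1. SKNMC had 6.63, 4.98 and 1.51 FPKM. KLF3 was lower with each step in dose in both lines. At 50 nM its log2 fold changes were -0.43 and -0.35, and at 200 nM it fell by 1.23 in A673 and by 1.60 in SKNMC. From 50 to 200 nM the values were -0.80 and -1.25. In A673 18.3% of active genes and in SKNMC 9.26% were lower than KLF3 at 200 nM.

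The Sin3-binding members are KLF9, KLF10, KLF11 and KLF13. KLF9, a gene induced by glucocorticoids and thyroid hormone, was inactive in A673, at 0.199, 0.215 and 0.113 FPKM. SKNMC had 3.01 FPKM in vehicle, 5.11 with 50 nM and 1.02 with 200 nM THZ1. In SKNMC the order of the libraries was therefore that seen for KLF5, highest at 50 nM and lowest at 200 nM. The log2 fold change was 0.61 at 50 nM, above 97.8% of active genes, and -0.99 at 200 nM, and it kept its sign under each scaling. With 0.1 added to FPKM in place of 1, the value at 200 nM was -1.48, and with the ribosomal protein scaling it was -1.25. From 50 to 200 nM KLF9 fell by 1.60 in SKNMC.

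KLF10 and KLF11 were first described as TGF-beta inducible early genes and repress growth-related genes. KLF10 was at 23.8 FPKM in A673 vehicle, 15.1 with 50 nM and 14.9 with 200 nM THZ1. In SKNMC, where KLF10 was the most abundant KLF gene of the 10, it was at 28.1, 32.6 and 20.2 FPKM. The 50 nM library lay below DMSO in A673 and above it in SKNMC, with log2 fold changes of -0.62 and 0.21, the latter negative with the ribosomal protein scaling. At 200 nM the values were -0.64 and -0.46, neither of them 2-fold, and the SKNMC value was positive with the 75th percentile scaling.

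KLF11 was at 2.60 FPKM in A673 vehicle, 1.52 with 50 nM and 0.680 with 200 nM THZ1. Its SKNMC levels were 7.53, 7.03 and 1.73 FPKM. The 200 nM library was the lowest in both lines, and in SKNMC the 50 nM library was near DMSO. At 50 nM its log2 fold changes were -0.51 and -0.09, the second positive with the 75th percentile scaling. At 200 nM KLF11 fell by 1.10 in A673 and by 1.64 in SKNMC, where 8.49% of active genes were lower. From 50 to 200 nM it fell by 1.56 in SKNMC and was at -0.59 in A673.

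KLF13, a factor known from activated T cells, was at 7.77, 7.29 and 4.51 FPKM in A673 with DMSO, 50 nM and 200 nM. In SKNMC it was at 17.1, 18.7 and 10.1 FPKM. The DMSO and 50 nM libraries were close to each other in both lines, and 200 nM was lowest. No KLF13 value passed 2-fold: at 200 nM the log2 fold changes were -0.67 and -0.70, and at 50 nM they were -0.08, which was positive with the 75th percentile scaling, and 0.12, which was negative with the ribosomal protein scaling. Under the latter the SKNMC value at 200 nM passed 2-fold, at -1.21.

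**Figure D3:**
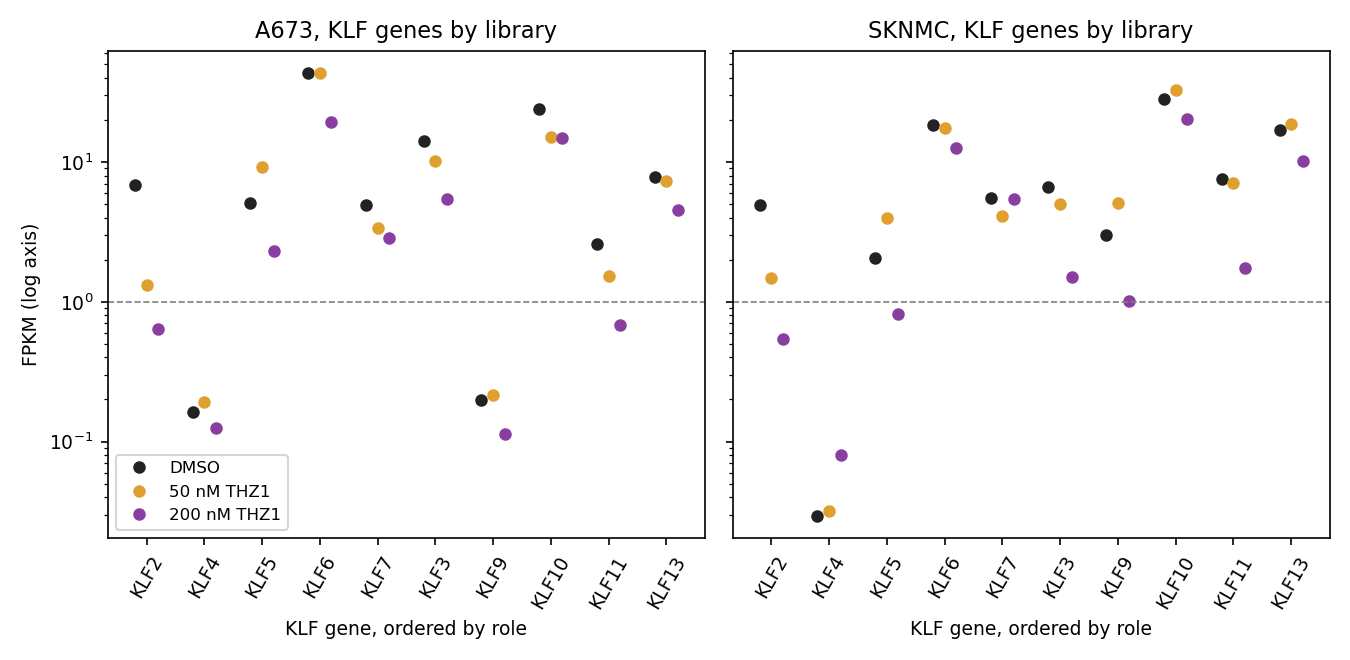
FPKM (vertical log axis) of the 10 KLF genes in each of the 6 libraries, 1 point per library, with A673 on the left and SKNMC on the right and genes ordered by cofactor group; the dashed line is the activity limit of 1 FPKM. KLF6 is highest in A673, at 43.4 FPKM with DMSO, KLF10 is highest in SKNMC, at 28.1 FPKM, and KLF4 is below the limit in every library.

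Set directly against 50 nM, the 200 nM library held less of all 8 active KLF genes in A673, where 51.7% of active genes were lower at 200 nM. In SKNMC it held less of 8 of the 9, where 62% of active genes were lower, and KLF7, at 0.34, was the exception. With the 75th percentile scaling the A673 count was 7 of 8, since KLF10 was then at 0.09. The share of 51.7% belongs to the deposited scaling, and none is given here for the other, so that count has no background. In A673 the median log2 ratio of 200 to 50 nM over the active KLF genes was -0.59, and in SKNMC it was -0.83.

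In the DMSO libraries the order of the KLF genes differed between the lines. In A673, from high to low, it was KLF6, KLF10, KLF3, KLF13, KLF2, KLF5, KLF7 and KLF11, with KLF9 and KLF4 inactive. In SKNMC it was KLF10, KLF6, KLF13, KLF11, KLF3, KLF7, KLF2, KLF9 and KLF5, with KLF4 inactive. Without replicates, the spread around each place in these orders is not known. Of the 9 KLF genes active in either line, 5 were at least 2-fold apart on the log2(FPKM + 1) scale, against 23.5% of the genes active in either line. KLF9, KLF11 and KLF13 were higher in SKNMC, by 1.74, 1.24 and 1.04. KLF5 and KLF6 were lower in SKNMC, at -1.00 and -1.20, and KLF3, at -0.98, was just inside 2-fold. All of the Sin3-binding members past 2-fold were thus higher in SKNMC, and the activators past it were higher in A673. With the 75th percentile scaling KLF5 was at -0.88 and the count was 4. With the ribosomal protein scaling KLF3 passed 2-fold, at -1.37, and KLF11 and KLF13 did not, at 0.85 and 0.62. All of these genes kept their direction. The share of 23.5% belongs to the deposited scaling, and none is given here for the others, so counts under them have no background.

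**Figure D4:**
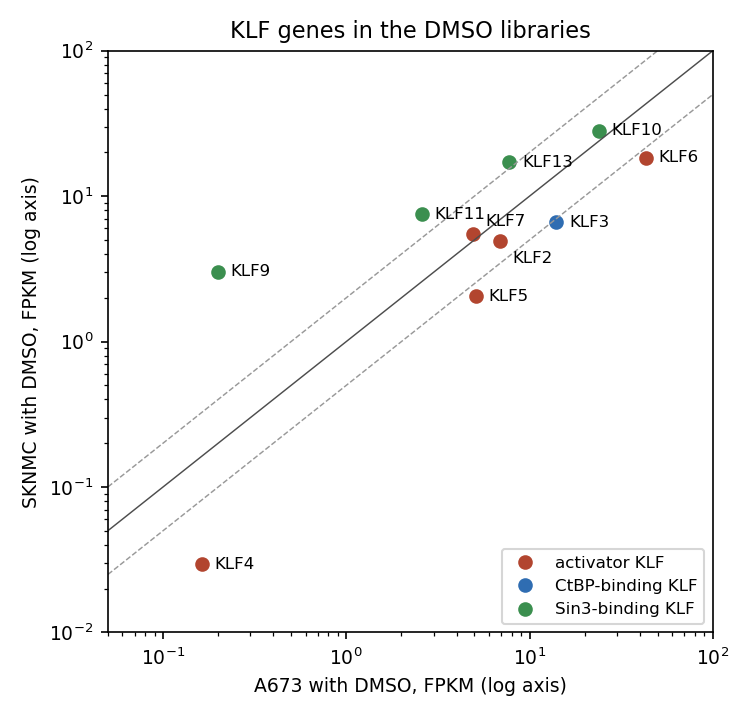
FPKM of the 10 KLF genes with DMSO in A673 (horizontal log axis) and SKNMC (vertical log axis), 1 library each; the solid line marks equal levels and the dashed lines a 2-fold ratio of FPKM without an added value. KLF9 lies farthest from equality among the genes active in either line, at 0.199 FPKM in A673 and 3.01 in SKNMC.

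The genes whose profile over the 4 comparisons was nearest to that of the KLF genes were found by Euclidean distance among 10560 genes active in both lines and above 0 in all libraries. Nearest to the median profile of the 8 KLF genes active in both lines were MLLT1, TPBG, VHL, UBE2C and POLR1D, at distances of 0.08, 0.09, 0.13, 0.13 and 0.15. CENPA, DGCR14 and DLX2 were nearest to KLF2, CENPA at 0.13. PRPF4B, PLAG1 and PHIP were nearest to KLF6, PRPF4B at 0.14. CTH, BTG3 and BICD2 were nearest to KLF9, CTH at 0.31, although KLF9 was inactive in A673. PAPD7, LUZP1 and SPTY2D1 were nearest to KLF5, a profile added after its values were seen. The 4 comparisons share a DMSO library within each line, so these profiles are not made of independent values.

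The other 7 KLF genes were KLF1, KLF8, KLF12, KLF14, KLF15, KLF16 and KLF17, of which 2 were active in A673 and 4 in SKNMC. KLF15, a regulator of glucose and amino acid metabolism, fell in all 4 comparisons. It was at 5.33 FPKM in A673 vehicle, 0.343 with 50 nM and 0.372 with 200 nM THZ1. SKNMC had 1.83, 0.0799 and 0.0825 FPKM. The THZ1 libraries of a line were thus nearly level with each other and far below DMSO, with log2 fold changes of -2.24 and -2.21 in A673 and -1.39 and -1.39 in SKNMC. KLF16, the most abundant of the 7, was at 24.0, 22.1 and 20.0 FPKM in A673 and at 22.6, 26.1 and 13.2 in SKNMC, and passed 2-fold only with the ribosomal protein scaling, at -1.25 for 200 nM in SKNMC. KLF12, which binds CtBP, was inactive in A673, at 0.821, 1.33 and 0.584 FPKM. In SKNMC it was at 1.42, 2.05 and 0.771 FPKM, with the same order of libraries as KLF5. It was chosen for mention after its values were seen.

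The SP proteins bind the same GC-rich elements as KLF proteins, and 4 of 9 SP genes were active in each line. Of these, 1 fell at 50 nM in each line, against 15.9% and 15.8% of all active genes, and at 200 nM 3 fell in A673 and 2 in SKNMC, against 25.3% and 27.3%. With the deposited scaling, the same shares stand behind the counts of the lists that follow. Other scalings have shares of their own. For the 75th percentile scaling the SP counts were 0 and 1 at 50 nM, against 11.0% and 10.3% of all active genes, and 1 and 1 at 200 nM, against 17.3% and 13.4%. For the ribosomal protein scaling they were 1 and 2, against 21.2% and 25.4%, and 3 and 4, against 34.7% and 49.5%. SP counts thus moved with the scaling, as the shares did. Their medians were -0.74 and -1.18 in A673 and -0.68 and -1.03 in SKNMC, below those of the KLF genes. Medians of this and the following lists are given for the deposited scaling alone, and those near 0 could change sign with another. SP3, the most abundant, was at 31.5 FPKM in A673 vehicle, 32.7 with 50 nM and 11.9 with 200 nM THZ1, and at 34.6, 38.9 and 15.0 in SKNMC. Like KLF6, it was near its DMSO level at 50 nM and lowest at 200 nM. It fell at 200 nM by 1.33 and 1.15, but with the 75th percentile scaling was short of 2-fold in both lines, at -0.98 and -0.61.

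The cofactors that KLF proteins recruit were all active. Of 9 corepressor genes for KLF3 and the Sin3-binding KLF proteins, none fell in A673 and 1 in SKNMC at 50 nM, and 2 and 3 fell at 200 nM, with medians of -0.27 and -0.28 in A673 and -0.35 and -0.25 in SKNMC. Corepressor genes thus had a higher median than the KLF genes in A673 and, at 200 nM, in SKNMC. HDAC2, a deacetylase and the most abundant corepressor, was at 0.17 and 0.00 in A673 and 0.19 and -0.25 in SKNMC, and each value changed sign with at least 1 scaling. No corepressor gene fell at 50 nM with the 75th percentile scaling, and 1 in each line did with the ribosomal protein scaling, against 11.0% and 10.3%, and 21.2% and 25.4%, of all active genes. At 200 nM 2 fell in each line with the first, against 17.3% and 13.4%, and 3 and 4 with the second, against 34.7% and 49.5%. With the first 1 in each line also rose at 200 nM, against 1.01% and 4.33%. SIN3A and SAP30, subunits of the Sin3 complex that binds KLF9, KLF10, KLF11 and KLF13, fell at 200 nM in both lines. Their log2 fold changes were -1.64 and -1.56 for SIN3A and -1.40 and -2.36 for SAP30. Other corepressor genes did not fall in either line at that dose. SIN3B was at -0.20 and 0.16, SAP18 at 0.10 and -0.19 and SUDS3 at -0.29 and -0.50. HDAC1 was higher than with DMSO, at 0.66 and 0.56. All of these values but that of HDAC1 in A673 changed sign with at least 1 scaling. SUDS3 passed 2-fold in SKNMC with the ribosomal protein scaling, at -1.00. Of 5 coactivators of KLF proteins, 1 fell at 50 nM in each line, and 3 in A673 and 2 in SKNMC at 200 nM, with medians of 0.04 and -1.31 in A673 and -0.05 and -0.74 in SKNMC. None fell at 50 nM with the 75th percentile scaling, against 11.0% and 10.3% of all active genes, and 1 and 2 at 200 nM, against 17.3% and 13.4%. At that dose 3 and 3 fell with the ribosomal protein scaling, against 34.7% and 49.5%. EP300, an acetyltransferase that acts with the activators, fell at 200 nM by 1.53 and 1.61. KDM4A, a demethylase, fell in all 4 comparisons, by 1.19 and 1.32 in A673 and by 1.16 and 1.70 in SKNMC, and with the 75th percentile scaling passed 2-fold only at 200 nM in SKNMC. KAT2A, the most abundant coactivator, was at 0.09 and 0.40 in A673 and 0.04 and 0.40 in SKNMC, and with the ribosomal protein scaling all but the second value were negative. SIN3A, SAP30, SIN3B, SAP18, SUDS3, HDAC1 and EP300 were chosen for mention after their values were seen.

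Ubiquitin ligases mark KLF proteins for degradation, and all 7 of those listed were active. None fell but 1 in SKNMC at 200 nM, and the medians were -0.16 and -0.65 in A673 and -0.19 and -0.60 in SKNMC. At 200 nM none fell in either line with the 75th percentile scaling, against 17.3% and 13.4% of all active genes, and 2 and 4 did with the ribosomal protein scaling, against 34.7% and 49.5%. VHL, the ligase gene with the highest mean DMSO level over both lines, was at -0.45 and -0.95 in A673 and at -0.19, positive with the 75th percentile scaling, and -0.71 in SKNMC, close to the KLF medians. With the ribosomal protein scaling it passed 2-fold at 200 nM, at -1.27 and -1.24, and with 0.1 added it did in A673. FBXW7, which targets KLF2 and KLF5 and was chosen for mention after its values were seen, rose at 50 nM by 1.06 in A673 and 1.34 in SKNMC. It was the 1 ligase gene that rose, against 0.343% and 0.471% of all active genes. With the ribosomal protein scaling the A673 value was 0.86, short of 2-fold. With the 75th percentile scaling 2 ligase genes rose in A673 at 50 nM, against 0.767% of all active genes. At 200 nM FBXW7 was at 0.14 in A673, negative with the ribosomal protein scaling, and at 0.82 in SKNMC, past 2-fold at 1.35 with the 75th percentile scaling. KLF protein levels were not measured in these libraries.

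Among 13 upstream regulators of KLF genes, 12 were active in each line, of which 1 fell at 50 nM and 5 at 200 nM in each, against 15.9% and 25.3% of all active genes in A673 and 15.8% and 27.3% in SKNMC, with medians of -0.15 and -0.79 in A673 and -0.03 and -0.87 in SKNMC. At 200 nM 4 fell in A673 and 1 in SKNMC with the 75th percentile scaling, against 17.3% and 13.4%, and 7 and 10 with the ribosomal protein scaling, against 34.7% and 49.5%. The 1 that fell in SKNMC at 50 nM was lost with the 75th percentile scaling and with a common sum. MAPK7, the kinase ERK5 that induces KLF2 and KLF4, fell in all 4 comparisons, by 1.90 and 1.68 in A673 and by 1.00 and 1.10 in SKNMC. In SKNMC it was short of 2-fold with the 75th percentile scaling, at -0.76 and -0.63, and at 50 nM also with a common sum, at -0.99. Whether these values are linked to those of KLF2 was not tested. SMAD4, which carries the TGF-beta signal that induces KLF10 and KLF11, fell at 200 nM by 2.01 in A673 and 1.56 in SKNMC.

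Of 15 known targets of KLF proteins, 11 were active in each line. With the lower and the higher dose, 1 and 3 of them fell in A673 and 2 and 3 in SKNMC, where 1 rose at 50 nM, against 0.471% of all active genes, with medians of -0.24 and -0.30 in A673 and -0.57 and -0.78 in SKNMC. At 50 nM the counts that fell were 0 and 1 with the 75th percentile scaling, against 11.0% and 10.3% of all active genes, and 2 and 3 with the ribosomal protein scaling, against 21.2% and 25.4%. The A673 count was 0 with a common sum as well, and the rise in SKNMC was lost with the ribosomal protein scaling. For 200 nM 1 and 3 fell with the 75th percentile scaling, against 17.3% and 13.4%, and 3 and 8 with the ribosomal protein scaling, against 34.7% and 49.5%. In SKNMC 2 also rose at that dose with the 75th percentile scaling, against 4.33% of all active genes. How many KLF targets fell therefore depended on the scaling. CCND1, the most abundant target, had log2 fold changes of -0.62 and -0.49 in A673 and -0.91 and -0.87 in SKNMC, where both passed 2-fold with the ribosomal protein scaling, at -1.24 and -1.43. Whether KLF proteins had a part in these values was not tested.

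KLF transcripts were set beside those of early response genes, which are also short-lived. Of 14 such genes, 12 were active in each line, and unlike the KLF genes some rose: in A673 1 with the lower dose and 5 with the higher, and in SKNMC 2 and 4, against 0.343%, 0.126%, 0.471% and 0.462% of all active genes. JUNB rose in all 4 comparisons, by 1.55 and 2.02 in A673 and by 1.56 and 2.27 in SKNMC. MYC, the most abundant, fell by 1.35 at 200 nM in SKNMC, short of 2-fold at -0.79 with the 75th percentile scaling, and was at -0.88 in A673, past 2-fold at -1.23 with the ribosomal protein scaling. Those that fell were 3 and 5 in A673 and 1 and 4 in SKNMC, and the medians were -0.10 and -0.66 in A673 and 0.06 and -0.58 in SKNMC. At 200 nM 3 and 1 fell with the 75th percentile scaling, against 17.3% and 13.4% of all active genes, and 6 and 5 with the ribosomal protein scaling, against 34.7% and 49.5%. Those that rose were 5 and 5 with the first, against 1.01% and 4.33%, and 3 and 3 with the second, against 0.0451% and 0.109%. Of 6 glucocorticoid response genes set beside KLF9, 1 fell in each comparison, the phosphatase gene DUSP1, at -1.78 and -2.25 in A673 and -1.01 and -1.46 in SKNMC. With the 75th percentile scaling both SKNMC values of DUSP1 were short of 2-fold, at -0.76 and -0.99, and with a common sum the one at 50 nM was just short of it. Their medians were -0.40 and -0.62 in A673 and -0.35 and -0.66 in SKNMC, and SGK1, the most abundant, was at -0.81 and -0.83 in A673 and at -0.53 and -0.54 in SKNMC, the last positive with the 75th percentile scaling. With the ribosomal protein scaling 3 of these 4 SGK1 values passed 2-fold, at -1.03 and -1.18 in A673 and -1.08 at 200 nM in SKNMC. The ribosomal protein scaling gave counts at 200 nM of 3 and 4 of the 6, against 34.7% and 49.5% of all active genes. KLF9 itself was above DMSO at 50 nM in SKNMC, so its order of doses was not that of DUSP1. TSC22D3, of the same list and chosen for mention after its values were seen, was also highest there at 50 nM. It was at 8.50, 10.6 and 9.29 FPKM in SKNMC, with log2 fold changes of 0.29 and 0.12, both negative with the ribosomal protein scaling.

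Genes with ZNF symbols carry the same kind of zinc finger as the KLF genes. At 50 nM 40.7% of 349 active ZNF genes fell in A673 and 34.0% of 374 in SKNMC, and at 200 nM 60.2% and 50.5% did. Over all active genes the shares were 15.9% and 15.8% at 50 nM and 25.3% and 27.3% at 200 nM, so the ZNF shares were above them. The KLF genes that fell at 50 nM, 1 of 8 and 1 of 9, were near the share of all active genes, and their difference from ZNF genes was not tested.

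On GRCh37, 5 of the 10 KLF genes, KLF2, KLF5, KLF6, KLF9 and KLF10, overlap no other annotated gene. KLF3, KLF4, KLF7 and KLF11 overlap an antisense RNA gene, KLF7 also overlaps RNA genes on its own strand, and KLF13 overlaps the pseudogene UBE2CP4. Whether strand was used in counting is not given in the sources used here. It is therefore not known whether reads from KLF3 and its antisense partner KLF3-AS1 were told apart, and likewise for KLF7 and KLF11.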

How the data were processed

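The deposited FPKM values of 27420 genes in 6 libraries were used, 1 library for each of 3 treatments in A673 and SKNMC. Per the study's methods, the authors aligned reads with STAR to hg19 with an Ensembl annotation and quantified them with StringTie, while the submitters' processing notes name Cufflinks and GRCh37. The 4 deposited log2 fold change columns, which compare THZ1 with DMSO, were not used. The deposited table is titled as average expression, but the labels give 1 library per condition. Whether strand was used in counting is not given in the sources used here.

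Fold changes were log2((FPKM + 1)/(FPKM + 1)), and active genes had DMSO FPKM above 1. A symbol with several entries was read from the entry of highest mean FPKM. In each list but the cell type markers, the genes named were the active gene with the highest mean DMSO FPKM over both lines and those past 2-fold one way in all 4 comparisons, and any other gene is said to have been chosen after its values were seen. The members and lists were chosen with earlier results of these data known. In SKNMC the DMSO library has 4400 FPKM of EEF1A1 and both THZ1 libraries list it at 0, so zeros are reported only as listed.

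Absolute depth is not known. From the spacing of low values, the THZ1 libraries had about 96.6% and 94.0% of the DMSO depth in A673 and 96.6% and 88.9% in SKNMC, at 50 and 200 nM. These are rough, since 3.01% to 4.99% of low values lay at the mode. Alternatives were 3 library scalings, an added value of 0.1 or none, activity by the mean over the 3 libraries of a line, no activity filter and a 1.5-fold threshold. Promoter windows were the 250 bases upstream of RefSeq starts on GRCh38.p14, and overlaps used GENCODE 44 on GRCh37. Python 3.11.15, numpy 2.4.6, pandas 2.3.3 and matplotlib 3.10.9 were used, and the code was tested on simulated data.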

Additional observations from a re-analysis of the deposited data

Results flagged for a closer look

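KLF10 and KLF13 differed in direction between the lines at 50 nM. The log2 fold change of KLF10 was -0.62 in A673 and 0.21 in SKNMC, the latter negative with the ribosomal protein scaling. That of KLF13 was -0.0796 in A673, positive with the 75th percentile scaling, and 0.12 in SKNMC, negative with the ribosomal protein scaling. Each condition is 1 library, and the difference was not tested for either gene.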

How the results depend on the processing

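Each condition is 1 library, so no library could be left out. No paired analysis was possible because the results come from no test and each line was described on its own. Some alternatives, those for the KLF5 dose pattern and for genes and counts of other lists, were chosen after seeing the data. Direction and side of the 2-fold threshold held for KLF2 in all 4 comparisons with DMSO. From 50 to 200 nM KLF2 was at -0.50 in A673 and -0.69 in SKNMC, short of 2-fold. With nothing added, its 200 nM level was 0.48 and 0.37 of that at 50 nM, past 2-fold. With the 75th percentile scaling, the KLF medians at the lower and higher dose were -0.22 and -0.69 in A673, and in SKNMC 0.22, a reversed sign, and -0.47. Under this scaling 1 of 8 KLF genes fell in A673 at 200 nM, against 17.3% of all active genes. KLF3, KLF6 and KLF11 were at -0.91, -0.77 and -0.94. In SKNMC at that dose KLF2, KLF3 and KLF11 still fell, at -1.71, -1.23 and -1.26, against 13.4% of all active genes. With the ribosomal protein scaling the KLF medians were -0.63 and -1.18 in A673 and -0.37 and -1.21 in SKNMC. Those of all active genes were -0.46 and -0.68 in A673 and -0.60 and -0.99 in SKNMC. At 200 nM 6 of 9 KLF genes fell in SKNMC, against 49.5%. In A673 KLF5, at -1.12, fell at that dose beside KLF2, KLF3, KLF6 and KLF11, against 34.7%. These scalings move all genes of a library together, and which one fits these libraries was not tested. With 0.1 added to FPKM, the KLF medians at 200 nM were -1.13 in A673 and -1.24 in SKNMC. Those of all active genes were -0.45 and -0.64. In SKNMC 5 of 9 KLF genes then fell, against 34.3%. With nothing added the KLF medians were -1.15 and -1.34, beside -0.46 and -0.65, and again 5 fell in SKNMC, against 35.0%. A smaller added value enlarges the folds of genes with low FPKM by construction. With no activity filter the A673 medians were -0.25 and -0.77, since KLF4 and KLF9 then counted. Activity by the mean over a line's libraries changed none of the 2-fold counts and medians of the KLF genes against DMSO. With a 1.5-fold threshold, a looser limit by construction, 2 of 8 KLF genes passed in A673 at 50 nM, against 31.8% of all active genes, 8 of 8 at 200 nM, against 41.1%, and 6 of 9 in SKNMC at 200 nM, against 48%. The results describe 2 established lines at 1 time, and depth limits the genes near 1 FPKM most.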

Other observations

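Of the cell type markers, CD79A was at 7.56 FPKM in A673 and 7.65 in SKNMC with DMSO, and PTPRC at 10.2 in SKNMC, while CD3E and CD3D were listed at 0. The epithelial genes above 1 FPKM were KRT8 and KRT18, KRT18 at 124.8 and 143.1 FPKM. The fibroblast or smooth muscle markers summed to 131.1 FPKM in A673 with DMSO and 139.1 and 140.9 with the lower and the higher dose, and to 152.1, 179.6 and 241.3 in SKNMC. COL1A2 was the most abundant of them, at 88.8 and 62.6 FPKM. Of the 5 genes at 200 nM in SKNMC, LUM was at 1.02, DCN at 0.80, COL1A2 at 0.58, COL1A1 at 0.44 and ACTA2 at -0.66. With the ribosomal protein scaling LUM was at 0.47, COL1A1 was negative and ACTA2 passed 2-fold, at -1.04. With the 75th percentile scaling LUM, DCN and COL1A2 passed 2-fold, at 1.58, 1.36 and 1.14. COL1A1 was then just short of it, at 0.996, and ACTA2 was at -0.23. Of the 7 Ewing sarcoma markers, 1 and 3 fell in A673 at 50 and 200 nM, against 15.9% and 25.3% of all active genes. In SKNMC 3 and 4 fell, against 15.8% and 27.3%. These counts depended on the scaling. With the 75th percentile scaling STEAP1, at -0.74 and -0.99, and BCL11B, at -0.89 and -0.66, were short of 2-fold in SKNMC. BCL11B was also short of it in A673 at 200 nM, at -0.83. With the ribosomal protein scaling CCND1 passed 2-fold in SKNMC, at -1.24 and -1.43, and STEAP1 in A673 at 200 nM, at -1.10. NR0B1 was past 2-fold down in all 4 comparisons, at -1.68 and -2.73 in A673 and -1.51 and -1.53 in SKNMC. CD99 was above DMSO in all 4, at 0.36 and 0.60 in A673 and 0.17 and 0.14 in SKNMC. Both SKNMC values of CD99 were negative with the ribosomal protein scaling. PRKCB was above DMSO in A673, at 0.09 and 0.41, and below it in SKNMC, at -0.16 and -0.11. The first A673 value was negative with the ribosomal protein scaling, and both SKNMC values were positive with the 75th percentile scaling. The markers named here were chosen for mention after their values were seen. The part of these markers in the KLF values was not tested.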
